A study of Mus musculus with 2 samples.

Results

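Ifng encodes interferon-gamma, the type II interferon. It was followed as a single gene, found by its symbol in the gene list of both deposited matrices, where it is 1 of 27998 genes. CD45.1+ immune cells had been flow-sorted from pancreas. The donors were NOD/ShiLtJ females, which become diabetic without induction through autoimmunity, aged 7 weeks for one library and 12 weeks for the other. No treatment or engineered allele is given in the labels, CD45.1 being the sort marker. Libraries were made with the 10x Genomics Chromium 3′ chemistry, in which each captured transcript carries a unique molecular identifier (UMI). With 1 library per age, an effect of age and an effect of library cannot be told apart, and how many mice were pooled is not stated in the sources used here.

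Interferon-gamma is secreted mainly by CD4 T helper 1 cells, CD8 T cells and natural killer cells. It signals through a receptor made of IFNGR1 and IFNGR2 and the kinases JAK1 and JAK2, and induces guanylate-binding proteins, immunity-related GTPases, antigen presentation genes and the chemokines CXCL9 and CXCL10. T cells transcribe the gene after receptor engagement or interleukin-12 and interleukin-18, with T-bet and eomesodermin as leading activators, and the transcript is short-lived. In the pancreatic islet it is a long-studied cytokine of autoimmune diabetes.

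Ifng (ENSMUSG00000055170) lies on the plus strand of chromosome 10, from 118441046 to 118445892, in GRCm38 (mm10) with GENCODE vM21. Its coding transcript has 4 exons, and the last one (118445154 to 118445892) carries the end of the coding sequence and a 3′ UTR of 631 bases, the end of the transcript that a 3′ library samples. The gene of unconfirmed type Gm49751 overlaps it on the same strand (118441419 to 118444140) but is not listed in the matrices. The 3′ UTR holds 6 ATTTA pentamers, the core of the AU-rich elements through which proteins of the Zfp36 family shorten the life of cytokine transcripts. The 30 bases with the most pentamers, chr10:118445330-118445359 on the plus strand and beginning 69 bases after the stop codon, are shown because genes of such decay factors are described with the results. Capitals mark the 3 pentamers.
Ifng 3′ UTR: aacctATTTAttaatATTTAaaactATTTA
Windows of 30 bases with at least 3 ATTTA pentamers on the transcript strand, overlaps allowed, made up 0.0256% of 1021064 non-overlapping 3′ UTR windows of 20998 coding genes, and 246 genes (1.17%) held one. Those windows lay at fixed positions, while the stretch shown was the best over all positions of its 3′ UTR. The share of genes is therefore a lower bound for windows placed at any position. The match is a description of the reference sequence, which is not that of NOD mice.

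The 7 week library had 1113 barcodes and 8701184 UMIs and the 12 week library 2812 barcodes and 19288252 UMIs, at median depths of 5643 and 4960.5 UMIs per barcode. After filtering, 1107 and 2782 cells were clustered with Ifng left out of the genes used, so no cluster was made with it. Levels are CPM, UMIs of a gene per 1000000 UMIs of all genes, summed over a cluster. Intervals are 95% and cover counting error only, treating UMIs as independent, and ratios are 12 weeks over 7 weeks. There was no replicate and hence no test. Clusters were called T-like or NK-like from marker genes, and the names below stand for such clusters. Markers of other pancreas cells differed between the libraries beside every comparison of age. In the T and innate lymphocytes, summed acinar markers (5 of 5 genes detected in each library) were at 18.1 CPM in the 7 week library and 144 CPM in the 12 week one, and endocrine markers (6 of 6) at 29.8 and 142 CPM. Over the CD4, CD8, Ncr1-positive and cycling classes the acinar sum ranged from 8.73 to 28.6 CPM at 7 weeks and from 74.1 to 205 CPM at 12 weeks. B cell markers (6 of 6) were at 167 and 180 CPM and macrophage markers (5 of 5) at 17.8 and 31.2 CPM in the lymphocytes. Their part in the results was not tested.

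Ifng transcripts lay almost wholly in T and innate lymphocytes. These were 805 cells at 7 weeks and 1790 at 12 weeks, and they held 963 of 1015 Ifng UMIs (94.9%) at 7 weeks and 1508 of 1557 (96.9%) at 12 weeks. Interferon-gamma transcripts were found in 275 of these cells at 7 weeks and 460 at 12 weeks. B cells, assumed here to hold little or no Ifng transcript, set the background, and this assumption was not tested. In the Fcer2a-led B cell cluster, 13 of 169 cells at 7 weeks and 13 of 636 at 12 weeks had an Ifng UMI, a level of 14.8 CPM (interval 8.09 to 24.8) and 4.17 CPM (2.28 to 7.00), and no cell there had more than 2. The background therefore was itself lower at 12 weeks, with a ratio of 0.282 (0.125 to 0.638). The myeloid and dendritic clusters were near it, at 18.6 CPM (12.4 to 26.7) and 6.73 CPM (4.22 to 10.2).

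CD4 cells outside the regulatory cluster held the largest part of lymphocyte Ifng in both libraries, with the clustering used here. They held 524 UMIs at 7 weeks, 54.4% of the total, and 602 at 12 weeks, 39.9%. The figure depends on the clustering: with resolution 0.5, 29 of 30 of the Lag3-high cells described next at 7 weeks and 86 of 86 at 12 weeks joined the regulatory cluster, and the rest of the CD4 cells held 32.6% and 23.8%. The 2 CD8 clusters held 22.2% and 26.4%, and the 2 Ncr1-positive clusters 11.6% and 9.02%. A cluster of cycling lymphocytes, led by cell division genes, held 8.72% at 7 weeks and 23.3% at 12 weeks, with 7.58% and 8.16% of the lymphocytes. Cycling cells were deep, at medians of 18683 and 15529 UMIs against 5522 and 4808.5 over all T and innate lymphocytes, so their share of UMIs exceeds their rank by CPM.

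The highest level was in a small CD4 cluster led by Lag3, Il10, Il21, Ccl3 and Ccl4. It held 30 cells at 7 weeks and 86 at 12 weeks, had no Foxp3 UMI, and is called Lag3-high here. Ifng was at 1208 CPM (interval 1055 to 1378) there at 7 weeks and 520 CPM (456 to 590) at 12 weeks. Next at 7 weeks came the Ccl5-led CD8 cells, an effector-type cluster that also expresses Gzmk and Nkg7, at 317 CPM (275 to 364). The Ncr1-positive cluster with Cd3e transcripts, led by Ncr1 and Klra natural killer receptor genes, was at 248 CPM (202 to 301). Then came a CD4 cluster led by Tnfsf8, Tnfsf11 and Il21 at 186 CPM (161 to 213), and a CD4 cluster led by Cd40lg and Il7r at 147 CPM (120 to 179). A mixed T cell cluster led by Rsad2 and other interferon-induced genes fell between them at 178 CPM (88.9 to 319), from 11 UMIs in 13 cells, and had 0 UMIs in 9 cells at 12 weeks. At 12 weeks these 4 clusters were at 256 CPM (232 to 283), 369 CPM (308 to 437), 157 CPM (138 to 177) and 118 CPM (96.3 to 142), in the same order of naming.

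Neighbours in this order were not all separated. At 7 weeks the Lag3-high interval lay above all others, though the level was 386 CPM without its 2 highest cells, while those of the Ccl5 CD8 and Ncr1 Cd3e-high clusters overlapped, as did those of the Ncr1 Cd3e-high and Tnfsf8 CD4 clusters and those of the Tnfsf8 and Il7r CD4 clusters. At 12 weeks the Ncr1 Cd3e-high cluster was above the Ccl5 CD8 cells only with its highest cell, and at 207 CPM against 248 CPM when the highest cell of each library was left out of each cluster. Cycling cells were at 64.9 CPM (51.8 to 80.4) in the 7 week library and 132 CPM (118 to 146) in the 12 week one, where their interval overlapped those of the Tnfsf8 and Il7r CD4 cells.

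The Cd3e-low Ncr1 cluster, NK-like by Klra8, Klra4 and Gzma, ranked below the Cd3e-high one. It held only 12 UMIs in 25 cells at 7 weeks, 75.8 CPM (39.2 to 132), and 5 in 18 cells at 12 weeks, 59.1 CPM (19.2 to 138). Eomes, the T-box factor typical of natural killer cells, was at 297 CPM in the 7 week library and 225 CPM in the 12 week one in it, and at 57.0 and 92.8 CPM in the Cd3e-high cluster. Regulatory T cells, marked by Foxp3, had 17 Ifng UMIs at 7 weeks and 16 at 12 weeks, 32.8 CPM (19.1 to 52.5) and 22.01 CPM (12.6 to 35.7). At 7 weeks that interval overlapped the B cell interval and at 12 weeks it lay above it. A small cluster led by Arg1 and Il1rl1 had 1 UMI in 17 cells and 4 in 29.

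Naive-type cells, led by Lef1 and Dapl1, were at background. Naive-type CD4 cells had 0 Ifng UMIs in 82 cells at 7 weeks, which allows up to 7.43 CPM by 3 counts and 9.13 CPM by the exact interval, and 6 in 378 cells at 12 weeks, 3.47 CPM (1.27 to 7.55). Naive-type CD8 cells had 12 UMIs in 70 cells, 30.5 CPM (15.8 to 53.3), and 6 in 230 cells, 5.03 CPM (1.85 to 11.0). At both ages the exact intervals overlapped those of the B cells.

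**Figure D1:**
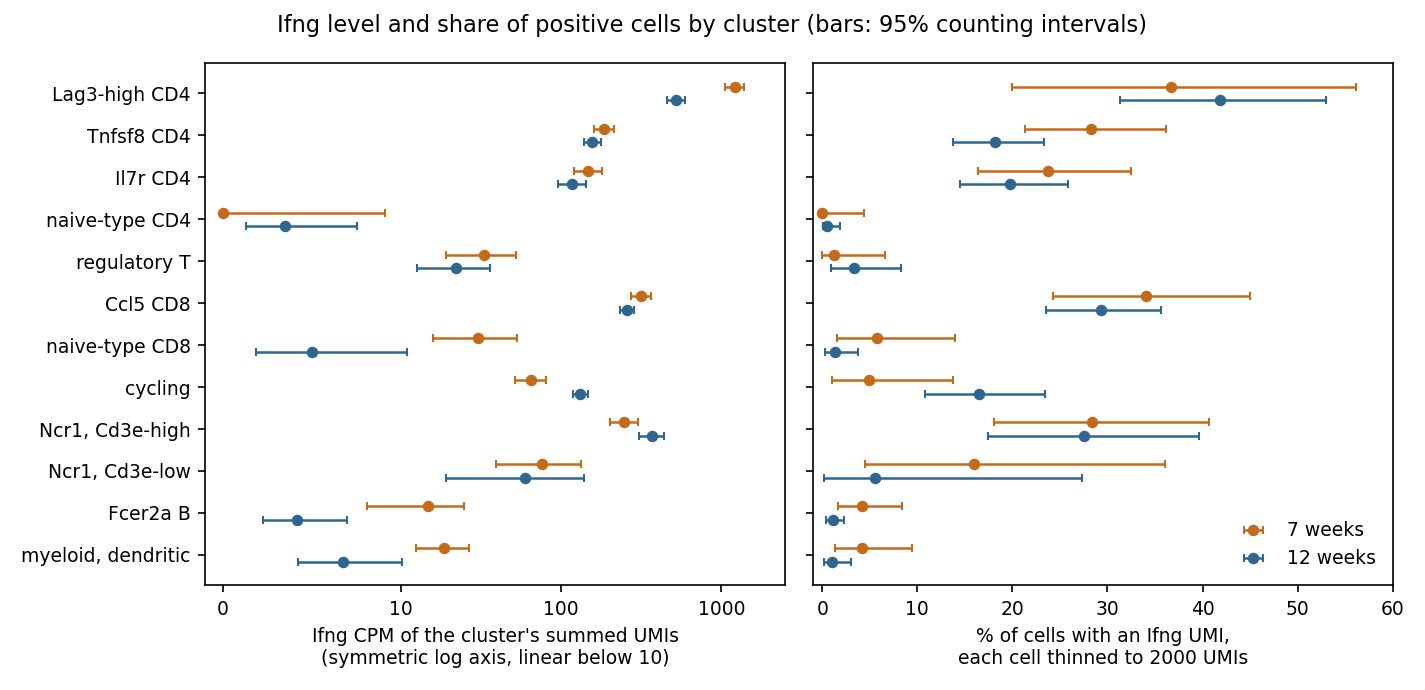
Left, Ifng CPM of each cluster's summed UMIs on a symmetric log axis. Right, percent of cells with an Ifng UMI after thinning to 2000 UMIs. Points are the 7 week (orange) and 12 week (blue) libraries and bars are 95% counting intervals. Lag3-high CD4 cells are highest in CPM, while naive-type cells, B cells and the myeloid and dendritic clusters lie at the low end.

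The share of cells with an Ifng UMI differed less between the high clusters than the level did. After each cell had been thinned to 2000 UMIs, which no analysed lymphocyte fell short of, 36.7% of Lag3-high CD4 cells at 7 weeks and 41.9% at 12 weeks held one. In Ccl5 CD8 cells it was 34.1% and 29.3%, in the Ncr1 Cd3e-high cluster 28.4% and 27.5%, in Tnfsf8 CD4 cells 28.3% and 18.2%, and in Il7r CD4 cells 23.7% and 19.7%. Unthinned, these were 56.7% and 59.3%, 56.8% and 53.4%, 47.8% and 42.0%, 48.0% and 33.1%, and 35.6% and 28.1%. Thinned B cells held one in 4.14% of cells (1.68% to 8.35%) and 1.10% (0.444% to 2.25%), at unthinned median depths of 4978 and 4573 UMIs. Naive-type CD8 cells were near this, at 4 of 70 cells and 3 of 230, and regulatory T cells were at 1.22% and 3.31% with intervals that include the B cell values.

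Ifng was spread unevenly over cells. Of the 805 lymphocytes at 7 weeks, 530 had 0 UMIs, 104 had 1, 124 had 2 to 4 and 47 had 5 or more. Of the 1790 at 12 weeks, 1330 had 0, 201 had 1, 170 had 2 to 4 and 89 had 5 or more. As few as 38 cells (4.72%) at 7 weeks and 72 (4.02%) at 12 weeks held 50% of the UMIs. The variance over cells was 17.9 times the mean at 7 weeks and 9.48 times at 12 weeks, with a mean of 1.196 ± 4.63 UMIs (SD over cells, n = 805) and 0.842 ± 2.83 (n = 1790).

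The cell with the most Ifng sat in a different cluster in each library. The highest cells of both libraries came from the Lag3-high CD4, Tnfsf8 CD4 and Ncr1 Cd3e-high clusters. At 7 weeks the highest Tnfsf8 CD4 and Ncr1 Cd3e-high cells had 25 and 21 Ifng UMIs. At 7 weeks 2 Lag3-high CD4 cells stood out, with 100 Ifng UMIs of 6678 in all and 59 of 12228. Both carried the chemokine transcripts Ccl3 (160 and 176 UMIs) and Ccl4 (395 and 450 UMIs), and Il21 (6 and 5 UMIs). These 2 cells held over 50% of the cluster's 223 UMIs, and the first held 44.8%. At 12 weeks the top cell had 59 Ifng UMIs of 7657 and sat in the Ncr1 Cd3e-high cluster, with 15 Ncr1 and 40 Xcl1 UMIs but 0 of Cd3e. It held 45.0% of that cluster's Ifng. The next cells were a Lag3-high CD4 cell with 49 UMIs, again with Ccl3 and Ccl4 (62 and 183 UMIs), and a Tnfsf8 CD4 cell with 37. None of the 5 cells with at least 37 Ifng UMIs had a Foxp3 UMI, and 1 of them, the cell with 49, had a Cd79a UMI.

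Clusters differed in how far single cells carried their Ifng. In the Ccl5 CD8 cluster the highest cell held 7.43% of the UMIs at 7 weeks and 3.57% at 12 weeks, and the variance was 4.398 and 4.109 times the mean. The corresponding figures were 57.3 and 13.7 times in Lag3-high CD4 cells, and 6.85 and 27.3 times in the Ncr1 Cd3e-high cluster. The variance was 5.11 and 8.60 times the mean in Tnfsf8 CD4 cells, 4.05 and 5.67 times in cycling cells, and 2.92 and 2.53 times in Il7r CD4 cells. Cells with 5 or more UMIs were 18.2% of Ccl5 CD8 cells at 7 weeks and 10.8% at 12 weeks, and 8.20% and 20.5% of cycling cells. Outside the lymphocytes only 2 cells at 7 weeks and 3 at 12 weeks reached 5 UMIs.

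**Figure D2:**
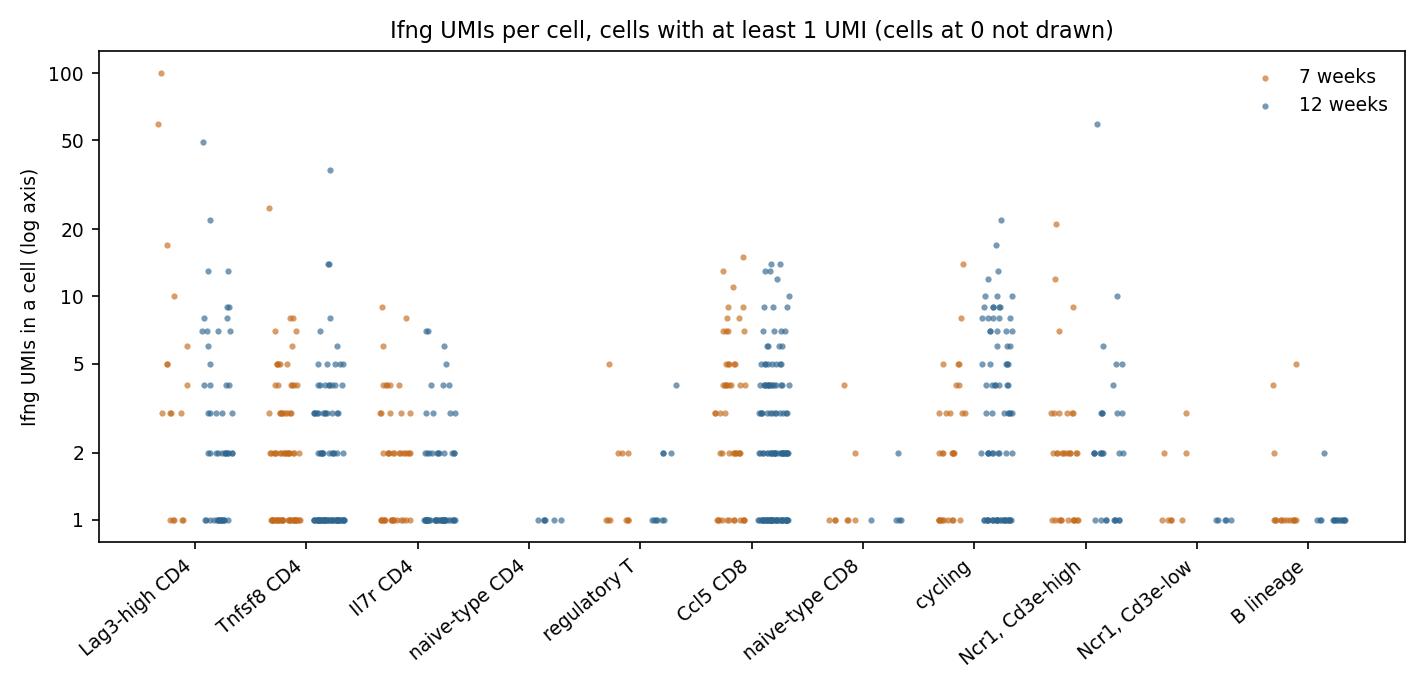
Ifng UMIs in each cell with at least 1, on a log axis, by cluster, with 7 week cells in orange and 12 week cells in blue. Cells at 0 are not drawn. The cells with 100 and 59 UMIs in the Lag3-high CD4 cluster at 7 weeks, and the Ncr1-positive cell with 59 at 12 weeks, stand above the rest, and no B lineage cell exceeds 5.

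Between the libraries, Ifng was lower at 12 weeks in CD4 and CD8 cells, each pooled with its naive-type cells, and higher in cycling cells. Naive-type cells were a larger part of both pools at 12 weeks, and their part in the ratios was not tested. The values over all lymphocytes, in the pooled CD4 cells and in Lag3-high CD4 cells depended on the 2 highest 7 week cells. Over all T and innate lymphocytes Ifng was at 163 CPM (153 to 174) in the 7 week library and 132 CPM (125 to 139) in the 12 week one. The ratio was 0.809 (0.746 to 0.878), and 0.867 (0.797 to 0.945) without the cell with most Ifng UMIs in each library. Without the 7 week cells with 100 and 59 UMIs it was 0.966 (0.886 to 1.05), and 0.899 (0.823 to 0.981) without the 2 highest cells of each library, an alternative added after seeing the data. The thinned share of positive cells had the same direction, at 18.1% and 14.0%. With each of the 9 clusters that held at least 30 cells in both libraries weighted equally, the ratio was 0.708, from means of 248 and 176 CPM. That 7 week mean includes the Lag3-high CD4 cells at 1208 CPM, a level that was 386 CPM without their 2 highest cells. The equally weighted ratio was not taken without those 2 cells. Differences between clusters in the ratio of 12 over 7 weeks were not tested.

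CD4 cells outside the regulatory cluster went from 223 CPM (204 to 243) to 129 CPM (118 to 139), a ratio of 0.576 (0.512 to 0.649), and of 0.654 (0.575 to 0.744) without the highest cell of each library. It was 0.706 (0.616 to 0.8095) without the 2 highest of each library, and 0.821 (0.719 to 0.937) without the 2 highest 7 week cells alone. Of the CD4 clusters outside the naive-type one, Lag3-high cells had the lowest ratio, 0.430 (0.357 to 0.518), moving to 0.614 (0.487 to 0.777) without the cells with 100 and 49 UMIs and to 0.752 (0.602 to 0.942) without the first alone. Without the 2 highest 7 week cells the direction turned, from 386 to 519.6 CPM (1.35, 1.02 to 1.80), and without the 2 highest cells of each library the levels were 386 and 385 CPM (0.998, 0.744 to 1.35). Their share of positive thinned cells went the other way, with a ratio of 1.14. In Tnfsf8 CD4 cells the ratio was 0.844 (0.698 to 1.02), and 0.810 (0.660 to 0.995) without the highest cells. In Il7r CD4 cells it was 0.797 (0.601 to 1.06). The makeup of the CD4 cells also differed, since naive-type cells, at background for Ifng, were 82 of 382 at 7 weeks and 378 of 936 at 12 weeks.

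CD8 cells went from 208 CPM (181 to 237) to 146 CPM (132 to 161), a ratio of 0.705 (0.595 to 0.836), and of 0.727 (0.611 to 0.867) without the highest cells. Within the Ccl5 CD8 cluster the values were closer, at a ratio of 0.809 (0.681 to 0.964). Without the highest cells this interval reached 1, at 0.836 (0.6996 to 1.001). The naive-type CD8 cells had a ratio of 0.165 (0.0508 to 0.475), at levels where the B cells had one of 0.282. They were 70 of 158 CD8 cells at 7 weeks and 230 of 462 at 12 weeks, so the makeup differed here too. Taken cell by cell through Cd8a and Cd8b1 UMIs, so that dividing CD8 cells were included, the CD8 ratio was 0.838 (0.720 to 0.977), and 0.857 (0.733 to 1.004) without the highest cells.

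In the cycling cluster Ifng went from 84 UMIs in 61 cells to 352 in 146 cells, a ratio of 2.03 (1.59 to 2.61), and of 2.26 (1.74 to 2.96) without the highest cells. The thinned share of positive cells was 4.92% (1.03% to 13.7%) and 16.4% (10.8% to 23.5%). The cluster mixes lineages. Its cells with Cd8a or Cd8b1 but no Cd4 UMIs went from 59.8 CPM (25 cells) to 172 CPM (54 cells), a ratio of 2.87 (1.98 to 4.28). Its cells with Cd4 but no Foxp3 or Cd8 UMIs went from 59.8 CPM (18 cells) to 73.1 CPM (53 cells), a ratio of 1.22 (0.722 to 2.17), and of 3.77 (1.52 to 12.1) without the highest cells, of which the one at 7 weeks held 14 of 19 UMIs. CD8 cells gated by marker UMIs were at 1.80 (1.33 to 2.46) when cycling and at 0.587 (0.490 to 0.705) when not. CD4 cells without Foxp3 UMIs, gated likewise, were at 0.840 (0.554 to 1.29) when cycling and at 0.508 (0.444 to 0.580) when not. Their cycling value was 1.12 (0.681 to 1.88) without the highest cells.

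Ncr1-positive cells were higher at 12 weeks only through the single cell with 59 UMIs. They went from 199 CPM (164 to 240) to 309 CPM (259 to 366), a ratio of 1.55 (1.199 to 2.01). The ratio was 1.09 (0.792 to 1.49) without the highest cell of each library and 0.894 (0.660 to 1.21) without the 12 week one alone. After thinning, 23 of 92 cells and 20 of 87 were positive. Cells with Ncr1 and CD3 gene UMIs had a ratio of 0.733 (0.518 to 1.02). Those with Ncr1 and no CD3 gene UMI, which include the top cell, had one of 11.4 (5.41 to 27.5), and of 0.323 (0.00684 to 2.89) without the highest cells.

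**Figure D3:**
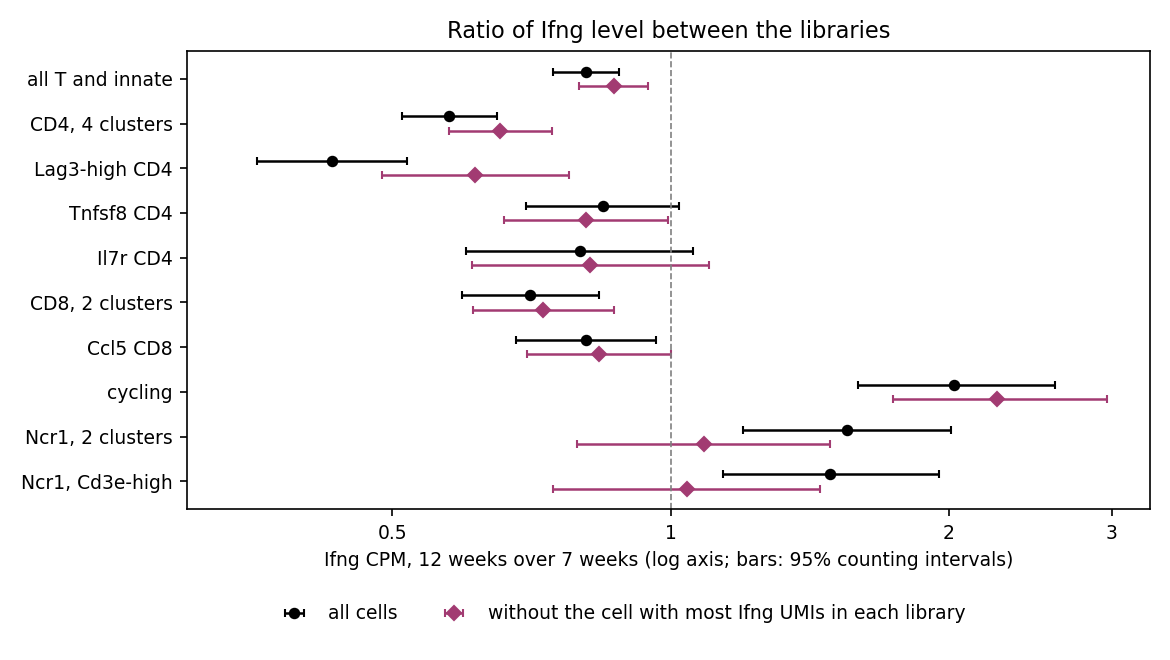
Ratio of Ifng CPM, 12 over 7 weeks, on a log axis with 95% counting intervals, for all cells (circles) and without the cell with most Ifng UMIs in each library (diamonds). Cycling cells stay above 1 at 2.03 and 2.26, the pooled CD4 and CD8 cells stay below 1, and the Ncr1-positive cells move from 1.55 to 1.09.

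Genes detected together with Ifng were sought among the lymphocytes at a fixed depth of 2000 UMIs per cell. Shares of cells with a gene were compared between Ifng-positive and Ifng-negative cells within each cluster and then weighted over clusters, with 146 positive and 560 negative cells at 7 weeks and 250 and 1531 at 12 weeks. Of 6243 genes ranked, 1581 were more frequent beside Ifng in both libraries, 1627 less frequent, and 0.593% exceeded 5 percentage points in both. These are descriptions of shares, and cells of 1 library share its preparation. The cycling cluster mixes lineages, so differences between CD8 and CD4 cells enter its comparison. There, 25.9% of cells with Cd8a or Cd8b1 but no Cd4 UMIs were Ifng-positive after thinning at 12 weeks. Of its cells with Cd4 but no Foxp3 or Cd8 UMIs, 3.77% were. The part of lineage in the differences was not tested.

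The genes with the largest excess beside Ifng, weighted over clusters, included several of activated and effector lymphocytes. Rgs16, a regulator of G protein signalling, was in 37.5% of Ifng-positive and 22.8% of Ifng-negative cells at 7 weeks, and in 36.3% and 21.3% at 12 weeks. The cytotoxic granule protein gene Nkg7 was in 65.9% and 54.8% at 7 weeks, and in 72.3% and 55.1% at 12 weeks. The chemokine Ccl5 exceeded the negative cells by 10.6 and 12.3 points and the chemokine Ccl4 by 9.07 and 13.2 points at 7 and 12 weeks. Bhlhe40, a transcription factor known to sustain Ifng expression in T cells, exceeded them by 9.87 and 10.3 points, and the inhibitory receptor gene Pdcd1 by 8.79 and 12.5 points. Single clusters differed. Of 12 pairs of cluster and library, Rgs16, Ccl5 and Ccl4 were higher beside Ifng in 10, Nkg7 and Pdcd1 in 11 and Bhlhe40 in 9. In Il7r CD4 cells Ccl4 was in 0 of 28 positive and 7 of 90 negative cells at 7 weeks, and in 1 of 40 and 11 of 163 at 12 weeks. Nkg7 was in 93.3% and 96.6% of Ccl5 CD8 cells at 7 weeks. Rgs1, S100a4, S100a6, Klf6 and Tgfb1 also ranked among the 12 highest, with weighted differences of at least 8.44 points in both libraries.

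Part of this list depended on the random draw of UMIs. Rgs16, Nkg7, Ccl5, S100a4, Ccl4 and Pdcd1 stayed above 5 points in both libraries in each of the 5 alternatives run, while Tgfb1 differed in sign between the libraries in at least 1. In the mean of 20 draws, an alternative added after the draws had been seen to differ, the 12 highest genes included 8 of those named, and 15 genes exceeded 5 points. Its other 4 were Ccl3 (7.07 and 13.4 points), the transcriptional regulator Id2 (6.96 and 11.4), the integrin chain Itgb2 (6.49 and 7.11) and the lectin Lgals1 (5.63 and 6.53), all chosen after their values were seen.

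Genes found less often beside Ifng were led by Slamf6, a surface receptor of less differentiated T cells. It was in 19.9% of positive and 30.6% of negative cells at 7 weeks, and in 23.9% and 33.8% at 12 weeks. Ccr7, the lymph node homing receptor, was in 6.15% and 12.9%, and in 4.90% and 12.4%. The other 4 named by rank, Arhgef1, Ppdpf, Ubxn4 and Hif1a, differed by -10.4 to -5.63 points. Of the 6, only Ccr7 and Hif1a were lower in both libraries under all 5 alternatives. In the mean of 20 draws Slamf6 was again lowest (-6.51 and -6.77 points), followed by Rgs10, Tcf7, the T cell factor of naive and stem-like T cells (-4.88 and -5.64), and Ikzf2, all but Slamf6 chosen after their values were seen.

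**Figure D4:**
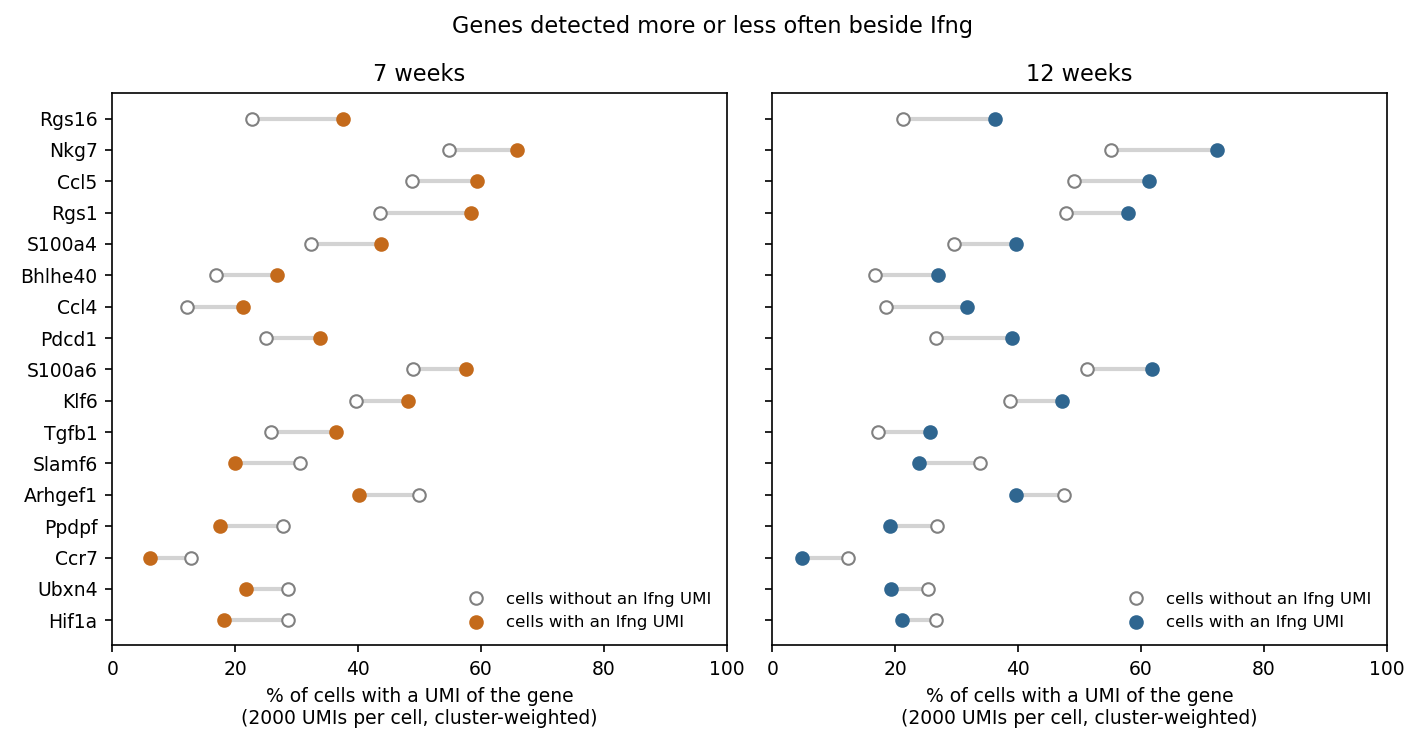
Percent of lymphocytes with a UMI of each named gene, at 2000 UMIs per cell and weighted over clusters, in cells with (filled) and without (open) an Ifng UMI, 7 weeks left and 12 weeks right. From Rgs16 (37.5% against 22.8% at 7 weeks) to Tgfb1 the genes lie to the right in Ifng-positive cells, and the lower 6, from Slamf6 to Hif1a, to the left.

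Lists of genes around interferon-gamma were read the same way, against 25.3% of all ranked genes more frequent and 26.1% less frequent beside Ifng in both libraries. Their counts and differences, here and in the next paragraph, come from 1 random draw of UMIs. Runx3 and Nr4a1 were not among the 20 highest genes in the mean of 20 draws. Nr4a2 was at 5.23 and 5.49 points in that mean, against 3.73 and 3.27 in the single draw. Of the inducers of Ifng, 7 of 11 ranked members were more frequent and 2 less. Runx3, a partner of T-bet, exceeded the negative cells by 5.50 and 5.60 points, Il18rap, an interleukin-18 receptor chain, by 3.04 and 2.90, and Stat4, the interleukin-12 transducer, by 2.06 and 3.40. Tbx21, which encodes T-bet, did not, at 6.83% of positive and 7.26% of negative cells at 7 weeks and 5.49% and 6.64% at 12 weeks. Eomes differed in sign between the libraries, by 6.21 and -0.71 points.

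Among other lymphocyte cytokines and chemokines 8 of 12 were more frequent beside Ifng and 1 less. Tnfsf8 exceeded the negative cells by 7.59 and 4.65 points, Xcl1 by 2.86 and 5.54, and Il21 by 2.29 and 2.48. Among genes of antigen receptor activation 7 of 11 were more frequent and 1 less, with Nr4a1 at 8.20 and 5.60 points and Egr2 at 2.54 and 3.68. Of the inhibitory receptors 4 of 5 were more frequent and none less, including Lag3 (4.67 and 3.82 points). Of the cytotoxic genes it was 3 of 6 more and 1 less, and of the mRNA decay factors 2 of 4 more and none less. The interferon-gamma target genes did not share the pattern, with 2 of 20 more frequent and 7 less, and of the receptor and signalling genes 1 of 8 was more frequent and 2 less. The negative cells here include cells whose Ifng transcripts were not captured.

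Over clusters, the genes most like Ifng in level included both chains of the integrin LFA-1. Pearson's r of log2(CPM + 10) was taken over 18 points, 9 clusters with at least 30 cells in each of the 2 libraries, for 5366 genes. It was highest for those chains, Itgal (0.90) and Itgb2 (0.90), and for Iqgap1 (0.89), Actr2 (0.89) and Arpc1b (0.89), cytoskeletal genes. Capns1, Gng2, Anxa2, AU020206 and Slc25a24 followed at 0.88. Within each library alone, over 9 points, the 10 genes had r from 0.81 to 0.95. Points of 1 cluster recur in both libraries and share its cells' state, and points of 1 library share its depth, so these values are a description.

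Some inducer genes had their highest levels outside the cluster with most Ifng. Tbx21 was at 54.2 CPM (26.0 to 99.6) in Lag3-high CD4 cells at 7 weeks and 114 CPM (67.4 to 180) in the Cd3e-low Ncr1 cluster, and at 49.6 CPM (31.4 to 74.4) and 59.1 CPM (19.2 to 138) at 12 weeks, with intervals that overlapped at each age. Eomes had 0 UMIs in Lag3-high CD4 cells in both libraries, which allows up to 16.3 and 6.47 CPM, and was at 97.3 and 80.5 CPM in Ccl5 CD8 cells. Il18r1, the interleukin-18 receptor, was at 248 and 214 CPM in the Ncr1 Cd3e-high cluster and at 27.7 and 35.9 CPM in Tnfsf8 CD4 cells. In Ccl5 CD8 cells, where Ifng was at 317 and 256 CPM, Runx3 had a ratio of 0.614 (0.507 to 0.745) and Il18r1 of 0.634 (0.464 to 0.872). Of the 12 inducers measured there, 1 was over 1.5-fold higher at 12 weeks and 2 as much lower, against 8.87% and 9.10% of all genes with at least 30 UMIs in that cluster.

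Receptor transcripts were widespread but unequal. Ifngr1 was lowest in Tnfsf8 CD4 cells, at 24.0 CPM in the 7 week library and 22.7 CPM in the 12 week one, and was at 344 and 337 CPM in regulatory T cells. The highest lymphocyte level of Ifngr1 at 12 weeks was 662 CPM, in the Cd3e-low Ncr1 cluster, which had 272 CPM at 7 weeks. In Il7r CD4 cells Ifngr1 was at 203 and 337 CPM, a ratio of 1.66 (1.35 to 2.04). Ifngr2 was at 46.5 and 68.8 CPM in B cells and 111 and 146 CPM in the myeloid and dendritic clusters, but at 6.47 and 5.67 CPM in Tnfsf8 CD4 cells. It had 0 UMIs in Lag3-high CD4 cells, which allows up to 16.3 and 6.47 CPM at 7 and 12 weeks, and in Cd3e-low Ncr1 cells, which allows up to 18.9 and 35.5 CPM. The chemokine Cxcl9, a target gene, was highest in the C1qb-led macrophages, at 2283 and 3014 CPM, and the related Cxcl10 was at 818 and 1017 CPM there. In lymphocytes Cxcl9 was at 2.88 and 4.03 CPM.

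Some interferon-gamma target genes were higher at 12 weeks, among them those of Tnfsf8 CD4 cells. In Tnfsf8 CD4 cells 8 of 18 measured target genes were over 1.5-fold higher and 1 as much lower, against 8.14% of all genes higher and 7.79% lower. Gbp2, a guanylate-binding protein, went from 28.6 to 110 CPM there (ratio 3.85, 2.61 to 5.83), and the immunity-related GTPase Iigp1 from 30.5 to 90.0 CPM (2.95, 2.01 to 4.45). Cd274, which encodes PD-L1, was the lower one, at 0.419 (0.261 to 0.664). The list's median log2 ratio was 0.49, against 0.05 for all genes.

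In the other clusters the share of target genes over 1.5-fold higher ranged from none to above that of all genes. Target genes were over 1.5-fold higher in 6 of 17 measured in naive-type CD4 cells, against 10.4% of all genes, with 2 as much lower. In naive-type CD4 cells Gbp7 had a ratio of 2.11 (1.39 to 3.33). In Lag3-high CD4 cells it was 4 of 10, of which 2 had an interval above 1, with 1 lower, against 11.0%. In B cells it was 4 of 17, with none lower, against 10.8% and 9.21%, with Gbp2 at 2.09 (1.41 to 3.20). In the myeloid and dendritic clusters it was 3 of 22 against 8.54%, near the background, with 2 lower. In Ccl5 CD8 cells it was 2 of 14, with 1 lower, against 8.87% and 9.10%. In the Ppp1r14a-led myeloid cluster alone it was 2 of 22, with 4 lower, against 10.8% and 11.6%. In Il7r CD4 cells none of 15 was higher, against 7.23%, and Cxcl10 had a ratio of 0.174 (0.0584 to 0.431). In naive-type CD8 cells 1 of 18 was higher and 2 were lower, against 10.7% and 8.90%. In regulatory T cells 3 of 17 were higher and none lower, against 8.48% and 9.68%. In the Ncr1 Cd3e-high cluster 2 of 8 were higher and 1 lower, against 9.64% and 7.46%. In cycling cells, where Ifng itself was 2.03 times as high, 1 of 16 was higher and 1 lower, against 8.02% and 8.70%.

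**Figure D5:**
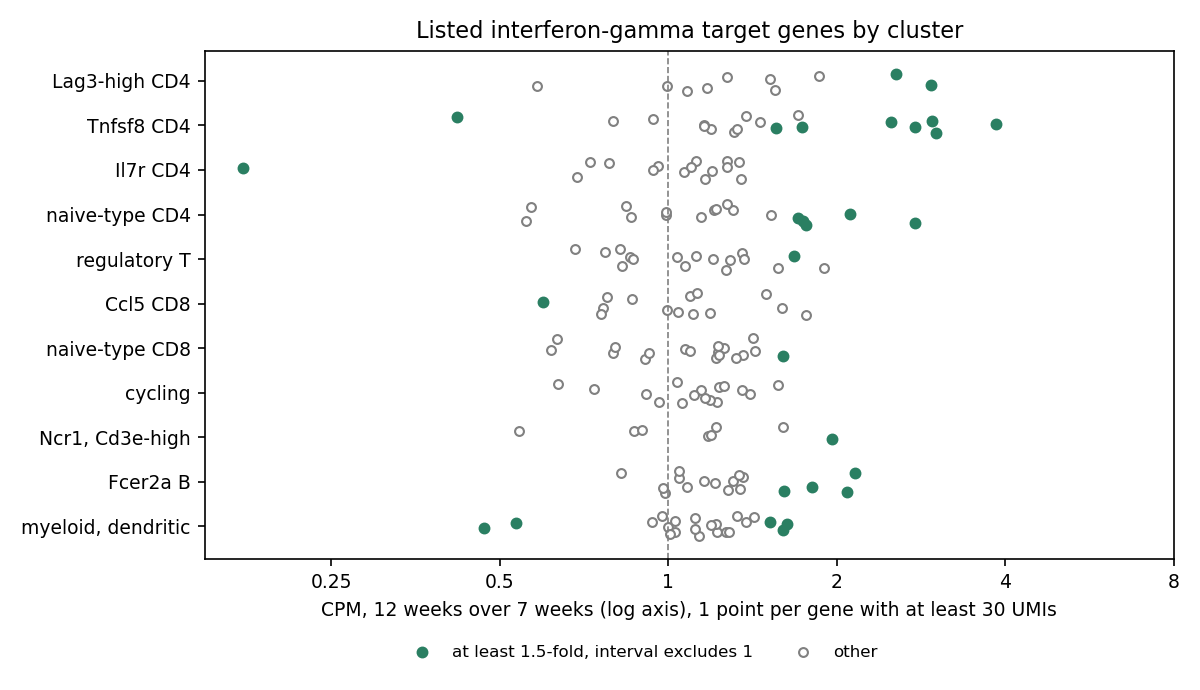
Ratio of CPM, 12 over 7 weeks, on a log axis, for each listed interferon-gamma target gene with at least 30 UMIs, by cluster. Filled points are at least 1.5-fold from 1 with an interval that excludes 1. Tnfsf8 CD4 cells have 7 filled points above 1, up to Gbp2 at 3.85, and 1 below, Cd274 at 0.419.

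In the cycling cluster the higher level of Ifng stood beside higher levels of other effector genes. Of 12 measured cytokine and chemokine genes 9 were over 1.5-fold higher at 12 weeks and none as much lower, against 8.02% and 8.70% of all genes. Ccl3 had a ratio of 3.45 (2.77 to 4.33), Ccl4 of 2.32 (2.07 to 2.60), and Tnfsf11, the RANK ligand, of 3.50 (2.10 to 6.21). The granzyme genes Gzma and Gzmb, encoding proteases of cytotoxic granules, were at 7.78 (5.85 to 10.6) and 3.06 (2.42 to 3.90). The inhibitory receptor genes Havcr2 (4.11, 1.97 to 9.91) and Lag3 (1.97, 1.67 to 2.33) were also higher. In this cluster acinar markers went from 28.6 to 74.1 CPM and endocrine markers from 23.2 to 120 CPM, B cell markers were at 151 and 141 CPM, and their part was not tested.

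In Ccl5 CD8 cells 2 of 6 measured cytotoxic genes were over 1.5-fold lower and none as much higher, against 9.10% and 8.87% of all genes. Gzma was at 0.332 (0.258 to 0.426) and Gzmb at 0.504 (0.405 to 0.628) of their 7 week level, and at 0.466 (0.313 to 0.6955) and 0.720 (0.555 to 0.939) without the cell with most UMIs of each gene in each library. The other 4, Gzmk (1.45), Klrk1 (1.36), Klrd1 (1.32) and Nkg7 (1.25), had ratios above 1 with intervals that excluded 1. Havcr2 was at 3.54 (1.84 to 7.66), Cd160 at 1.80 (1.37 to 2.39) and Lag3 at 1.53 (1.34 to 1.76). Of 5 measured inhibitory receptor genes 3 were over 1.5-fold higher and none as much lower, against the same shares. In Lag3-high CD4 cells Ccl3 had a ratio of 0.507 (0.440 to 0.584), which turned to 8.95 (5.60 to 15.2) without the 7 week cells with 100 and 59 Ifng UMIs, since 18 Ccl3 UMIs remained at 7 weeks. Ccl5 had a ratio of 2.53 (2.24 to 2.87) there, and of 2.43 (2.14 to 2.76) without those cells.

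Over 11 clusters, 23 of 87 entries (a gene in a cluster) of receptor activation were over 1.5-fold lower at 12 weeks and 5 as much higher. Of the mRNA decay factors 16 of 40 were lower and none higher. By cluster, 7.46% to 11.7% of all genes were that much lower and 7.23% to 11.0% higher. Entries repeat the same genes over clusters of the same libraries and are not separate observations. In Tnfsf8 CD4 cells 5 of 11 activation genes were over 1.5-fold lower, against 7.79% of all genes, including Nr4a1 (0.348, 0.268 to 0.4502), and 1 was higher, Tnfrsf4 (1.62, 1.42 to 1.85). The activation list had 1 member higher and none lower of 10 in cycling cells, against 8.02% and 8.70% of all genes. It had 2 higher and 1 lower of 10 in Ccl5 CD8 cells, against 8.87% and 9.10%. Its median was above that of all genes in 3 of the 11 clusters. Over 11 clusters the median log2 ratio of the 4 decay factor genes, whose proteins act on AU-rich or stem-loop elements such as the stretch shown above, was below that of all genes in each, from -0.85 to -0.09. In regulatory T cells 4 of 4 were over 1.5-fold lower, against 9.68% of all genes, with Zfp36 at 0.536 (0.398 to 0.721) and Zfp36l2 at 0.479 (0.314 to 0.723). In Lag3-high CD4 cells it was 2 of 3, against 11.1%, with Zfp36 at 0.606 (0.405 to 0.917), and at 0.693 (0.448 to 1.09) without the 7 week cells with 100 and 59 Ifng UMIs. In Ccl5 CD8 cells none of 4 was that much lower, against 9.10%. In naive-type CD4 cells, which were at background for Ifng, 2 of 4 were lower, against 11.7%. No relation of these genes to the level of Ifng was tested.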

How the data were processed

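The authors deposited UMI counts per gene and barcode for each library, made with Cell Ranger 1.3.1 on mm10 per the submitters' processing notes. Annotation and cell calling: not given in the sources used here. A filter of 200 or more genes and a mitochondrial share no higher than 10% removed 4 and 8 barcodes. Scrublet marked 2 and 22 doublets, which were removed. After that, 10 and 9 cells held at least 2 UMIs of both Cd3e and Cd79a. The libraries share 2 barcodes. Cells were clustered together without batch integration in scanpy 1.11.5 (Python 3.11.15) with 2000 variable genes, 30 components, 15 neighbours and resolution 1. Classes came from marker CPM limits set after values were seen. Intervals are exact Poisson (CPM), Clopper-Pearson (shares) and conditional binomial (ratios). Co-detection was checked on simulated data. Lists (8, with 93 genes) are read as counts past 1.5-fold among genes with at least 30 UMIs.

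Named genes are Ifng in every class, the 12 highest and 6 lowest co-detected, the 10 most correlated over clusters, and list members past 1.5-fold with an interval excluding 1, or given to describe levels after values were seen. The gene and the lists were chosen with earlier results of these data known. Some named genes are not reported here.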

Additional observations from a re-analysis of the deposited data

How the results depend on the processing

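No paired analysis was possible because each age had 1 library. Alternatives were marker gates per cell, no highest cell, means over cells, thinned shares, no barcode filter, resolution 0.5 and 1000 variable genes. The ratio below 1 in pooled CD4 and CD8 cells and above 1 in cycling cells kept its direction under all of them. The CD8 ratio of thinned shares had an interval of 0.468 to 1.11, which includes 1. All of these alternatives pool naive-type with other CD4 or CD8 cells, so they cannot show what the larger naive-type share at 12 weeks contributed. Values outside the counting interval were the CD8 ratio by gates (0.838), the CD4 ratio without the highest cells (0.654), the cycling ratio of thinned shares (3.34), and over all lymphocytes the mean over cells (0.737) and equal weights, added after seeing the data (0.708). Without the 2 highest cells of each library, also added, it was 0.706 in CD4 cells, 1.09 in Ncr1-positive cells and 0.899 over all lymphocytes. Without the 2 highest at 7 weeks alone it was 0.821, 2.14 and 0.966, and 2.64 in cycling cells. In Ncr1-positive cells the ratio was 1.09 without the highest cells and turned to 0.920 as thinned shares. The percent of lymphocyte Ifng in CD4 cells at 7 weeks was 49.1 without the highest cells, 32.6 at resolution 0.5 and 33.0 with 1000 variable genes. At 12 weeks it was 23.8 and 22.3 under the latter settings, where most Lag3-high cells joined the regulatory cluster. List entries over 1.5-fold lower numbered 115 and higher 98, and 180 and 140 with at least 10 UMIs. TMM scaling gave 114 and 100. These counts serve only to compare settings, and they include the Ppp1r14a-led cluster both alone and within the pooled myeloid clusters. With at least 30 UMIs, 7.46% to 11.7% of all genes in a cluster were that much lower and 7.23% to 11.0% higher. Of the 12 genes named as co-detected, 5 stayed among the 12 highest at 1000 UMIs, 8 with another seed and 9 with Ifng status from all UMIs. Small clusters, such as the Cd3e-low Ncr1 cells, have wide intervals.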
